A study of Mus musculus with 6 samples.

Results

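Ribosomal protein genes encode the protein part of the large and small ribosomal subunits, and a few of them have testis-expressed or otherwise diverged paralogs. Members were all gene symbols that begin with Rpl or Rps followed by a digit, with Rplp0, Rplp1, Rplp2 and Rpsa, leaving out pseudogene names (-ps) and the Rps6k kinases. The rule found 90 of the 25165 symbols: 46 of the large subunit, 31 of the small subunit, 12 paralogs, and Rps19bp1, which encodes a protein that binds Rps19 and is not itself part of the ribosome. The data are RNA-seq libraries of total RNA from testes of 8-week-old C57BL/6 mice. Libraries titled KO (3) come from a study of mice deficient for NR_038002, the long non-coding RNA Teshl, and were compared with 3 libraries titled WT. In all 6 libraries the genotype label contradicts the title: libraries titled KO carry the label wild type, and libraries titled WT carry NR_038002-/-. Groups follow the titles, and differences are given as titled KO minus titled WT. The labels do not say how the loss was made, nor whether the libraries of a group come from separate animals.

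The targeted gene was examined first. The symbol 1700027A15Rik, the gene of NR_038002, was at 0.385 FPKM in titled KO replicate 1 and listed at 0 in titled KO replicates 2 and 3, against 1028, 989 and 1081 FPKM in the titled WT libraries, so its level goes with the titles. FPKM count fragments relative to the length of a gene's transcripts and to library depth, and they summed to between 393622 and 413604 per library. From the steps between low values, depth was estimated as 27900000 to 39400000 fragments per library, at which 3 fragments on a transcript of 1 kb equal 0.0762 to 0.108 FPKM.

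Every cell that makes protein needs a nearly complete set of ribosomal proteins, and their mRNAs are among the most abundant of most tissues. Many of these mRNAs begin with a C followed by a run of pyrimidines, the 5′ terminal oligopyrimidine (TOP) motif, through which their translation is regulated together. In male meiosis the X chromosome is transcriptionally silenced, and several X-linked housekeeping genes, ribosomal protein genes among them, have autosomal copies that are transcribed in germ cells. Ribosomal protein genes have also given rise to many processed pseudogenes, whose sequences can be nearly the same as the parent mRNA.

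Both kinds of copy are shown here because they set how the values can be read. Rpl39l on chromosome 16 is a diverged copy of the X-linked Rpl39. Their coding sequences without the stop codon (153 bases in each, from GENCODE M21 transcripts) are given below, with capitals at the 23 positions where they differ.
Rpl39l: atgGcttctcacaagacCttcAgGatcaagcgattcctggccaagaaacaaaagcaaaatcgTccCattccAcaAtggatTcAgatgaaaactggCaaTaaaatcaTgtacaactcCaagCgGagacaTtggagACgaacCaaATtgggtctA
Rpl39: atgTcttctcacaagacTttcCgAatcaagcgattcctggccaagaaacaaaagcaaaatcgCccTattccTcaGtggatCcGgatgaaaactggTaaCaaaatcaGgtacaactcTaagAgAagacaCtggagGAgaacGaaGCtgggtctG
The identity of this pair was 85.0%, and 0 stretches of 50 bases were shared between the chosen transcripts. Any 50-base stretch of one chosen transcript is thus absent from the other.

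Rps27rt, a single-exon gene on chromosome 9 (chr9:114982366-114982739, minus strand), is the opposite case. Over 252 bases its coding sequence is identical to that of Rps27 (chr3:90212522-90213651, minus strand), and both read as follows.
Rps27 and Rps27rt: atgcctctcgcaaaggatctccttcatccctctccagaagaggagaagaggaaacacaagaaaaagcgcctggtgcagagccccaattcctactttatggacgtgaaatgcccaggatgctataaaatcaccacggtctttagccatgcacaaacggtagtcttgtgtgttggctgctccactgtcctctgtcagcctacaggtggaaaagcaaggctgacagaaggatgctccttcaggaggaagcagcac
Of the 50-base windows of the Rps27 transcript, 98.6% were present in Rps27rt. The identity reaches the start of transcription as RefSeq annotates it (GRCm38.p6): the first 30 bases of each gene are given with the TOP-like letters CTTTCC in capitals, chr3:90213619-90213648 for Rps27 and chr9:114982710-114982739 for Rps27rt, both on the minus strand.
Rps27: cCTTTCCggcggtgacgacctccctacgag
Rps27rt: CTTTCCggcggtgacgacctccctacgaga
By annotation, the copy starts 1 base after the first base of the parent mRNA.

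For 3 other members the nearest copy is a processed pseudogene that differs from the mRNA by 1 or 2 bases over the length of the pseudogene. The parent transcripts are longer. Of their 50-base windows, 37.9% (Rpl34), 51.9% (Rpl26) and 29.7% (Rpl30) were present in the copy. A stretch of 51 bases is shown for each pair, with the first difference in capitals. Rpl34-ps1 (chr6:71124610-71124963, plus strand) differed from Rpl34 at 2 of 354 bases.
Rpl34-ps1: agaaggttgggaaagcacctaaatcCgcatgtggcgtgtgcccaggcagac
Rpl34: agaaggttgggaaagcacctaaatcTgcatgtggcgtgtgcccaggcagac
Gm15772 (chr5:3236431-3236868, plus strand) differed from Rpl26 at 2 of 438 bases.
Gm15772: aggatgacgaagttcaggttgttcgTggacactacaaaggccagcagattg
Rpl26: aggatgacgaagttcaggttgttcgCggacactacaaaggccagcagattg
Gm12191 (chr11:49678710-49679057, minus strand) differed from Rpl30 at 1 of 348 bases.
Gm12191: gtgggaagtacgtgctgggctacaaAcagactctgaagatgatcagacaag
Rpl30: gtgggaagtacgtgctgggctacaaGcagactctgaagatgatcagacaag

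The core genes, those of the large and small subunit without paralogs, were expressed over a wide range of levels. Of these 77 genes, 73 had no listed zero in any library. Their mean level over the 6 libraries had a median of 145.7 FPKM in the large subunit (43 genes) and 174.5 FPKM in the small subunit (30 genes), against 7.47 FPKM over all 12952 symbols tested. Rpl41, which encodes a very short basic peptide of the large subunit, was the highest at 1577, 1541 and 1514 FPKM in the titled KO libraries and 1542, 1587 and 1609 FPKM in the titled WT libraries. In the small subunit the highest was Rps29, a zinc-binding protein, at 825, 835 and 794 FPKM against 715, 802 and 862 FPKM. The lowest were Rps15a, at 16.3 to 17.7 FPKM over the 6 libraries, and Rpl22, an RNA-binding protein of the large subunit, at 17.1 to 19.98 FPKM. The ranges of Rpl41 and Rps29 did not overlap, whereas those of Rpl22 and Rps15a did.

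Products of these genes enter the ribosome in equal numbers, with the exception of the acidic stalk. The stalk genes Rplp0, Rplp1 and Rplp2 had mean levels of 423, 363 and 256 FPKM, and Rpsa, a small-subunit protein also known as a laminin receptor, 68.8 FPKM. Across the 73 genes the mean FPKM was lower for longer coding sequences (Spearman's rho -0.381) and for longer transcripts (rho -0.514), and showed little relation to the share of 50-base windows that a transcript shares with other annotated transcripts (rho -0.038). These are descriptions across genes of the same libraries. FPKM are already divided by transcript length, so a negative relation to length can be partly built into the measure. Genes that share under 50% of their windows (43 genes) had a median of 178.8 FPKM and the other 30 a median of 113.8 FPKM. GENCODE tags 32 of the 77 core genes as hosts of a non-coding RNA gene; with listed zeros left out, the median was 110.2 FPKM in 31 hosts and 194.8 FPKM in 42 other genes.

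The 4 X-linked core genes stood near the bottom of this order. Rpl39 was 62nd of 73 at a mean of 61.2 FPKM, Rpl10 was 68th at 32.5, Rpl36a was 70th at 26.8 and Rps4x was 71st at 20.6. Their median was 29.7 FPKM, against 163.5 FPKM for the 69 autosomal core genes. Rpl10 encodes a late-joining protein of the large subunit, Rpl39 a short protein of the peptide exit tunnel, Rpl36a a further large-subunit protein and Rps4x a protein of the small subunit. The neighbours Rpl36a and Rps4x did not differ beyond their spread, since Rpl36a ranged over 23.1 to 30.6 FPKM and Rps4x over 18.2 to 25.9. In whole testis, fewer cells of a type and less RNA per cell cannot be told apart.

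**Figure D1:**
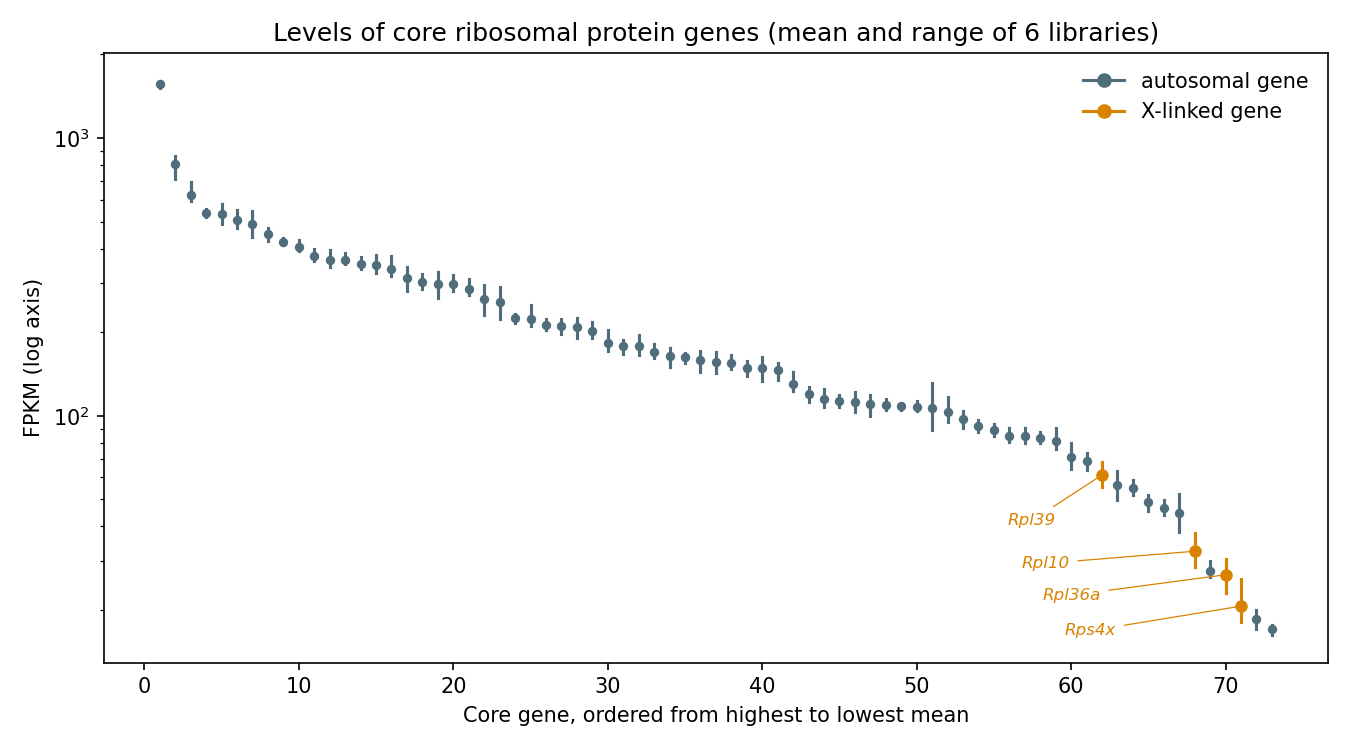
Mean level in FPKM (log axis) of the 73 core ribosomal protein genes with no listed zero, ordered from highest to lowest, with bars for the lowest and highest of 6 libraries; the 4 X-linked genes are in orange. The X-linked genes lie at positions 62, 68, 70 and 71, with means of 20.6 to 61.2 FPKM.

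Each X-linked gene had an autosomal paralog at a higher level in all 6 libraries. Rpl10l, a single-exon gene (chr12:66283379-66284401, minus strand; Rpl10 has 6 exons at chrX:74270812-74273135), was at 156, 156 and 161 FPKM in the titled KO libraries and 151, 167 and 165 FPKM in the titled WT libraries. Rpl10 itself was at 32.8, 29.9 and 28.5 FPKM against 30.1, 37.7 and 36.3 FPKM. Rpl10l was thus 4.42 to 5.63 times as high as Rpl10, and the groups overlapped for both genes.

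Rpl39l (chr16:10170226-10174911) was at 247, 234 and 227 FPKM in the titled KO libraries and 236, 247 and 243 FPKM in the titled WT libraries. Rpl39 (chrX:37082520-37085402) was at 68.2, 55.4 and 55.4 FPKM against 60.3, 66.8 and 61.3 FPKM, and the ratio was 3.62 to 4.23. Rpl36al (chr12:69182731-69184083, 1 exon) was at 144 to 156 FPKM in the 6 libraries. Its parent Rpl36a (chrX:134585654-134588062) was at 25.9, 23.1 and 26.6 FPKM against 25.4, 30.6 and 29.1 FPKM, with a ratio of 4.94 to 6.74. In no library did a parent reach its copy.

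Rps4l (chr6:148354656-148355598, 1 exon), which GENCODE M21 classes as a transcribed processed pseudogene, was at 91.1, 91.5 and 95.6 FPKM in the titled KO libraries and 96.2, 117.5 and 107.5 FPKM in the titled WT libraries. Rps4x (chrX:102184941-102189394) was at 21.7, 18.2 and 18.8 FPKM against 19.0, 25.9 and 20.4 FPKM, which put the ratio at 4.20 to 5.27. All titled KO values of Rps4l lay below all titled WT values, while those of Rps4x overlapped. Ratios of 3.62 to 6.74 in 4 pairs and 6 libraries are ratios of length-scaled values.

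The copies and parents differ enough in sequence to be separated from each other. Identity was 84.7% for Rpl10l and Rpl10 (98 of 642 coding bases differ), 87.7% for Rpl36al and Rpl36a (39 of 318) and 77.0% for the Rps4l and Rps4x transcripts, and in each pair 0 windows of 50 bases were shared. The parents, however, resemble other annotated copies. Rpl10 shares 85.4% of its windows with other transcripts, Rpl36a 85.5%, Rps4x 72.2% and Rpl39 16.2%, whereas Rpl10l shares 7.6%, Rpl36al 24.9%, Rps4l 14.9% and Rpl39l 0.0%. The part that shared sequence plays in the low levels of the X-linked genes was not tested. From the 6-library means the ratio was 3.90 for Rpl39l and Rpl39, the pair with the least sharing in its parent, and 4.90, 5.61 and 4.84 for Rpl10l, Rpl36al and Rps4l with their parents.

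**Figure D2:**
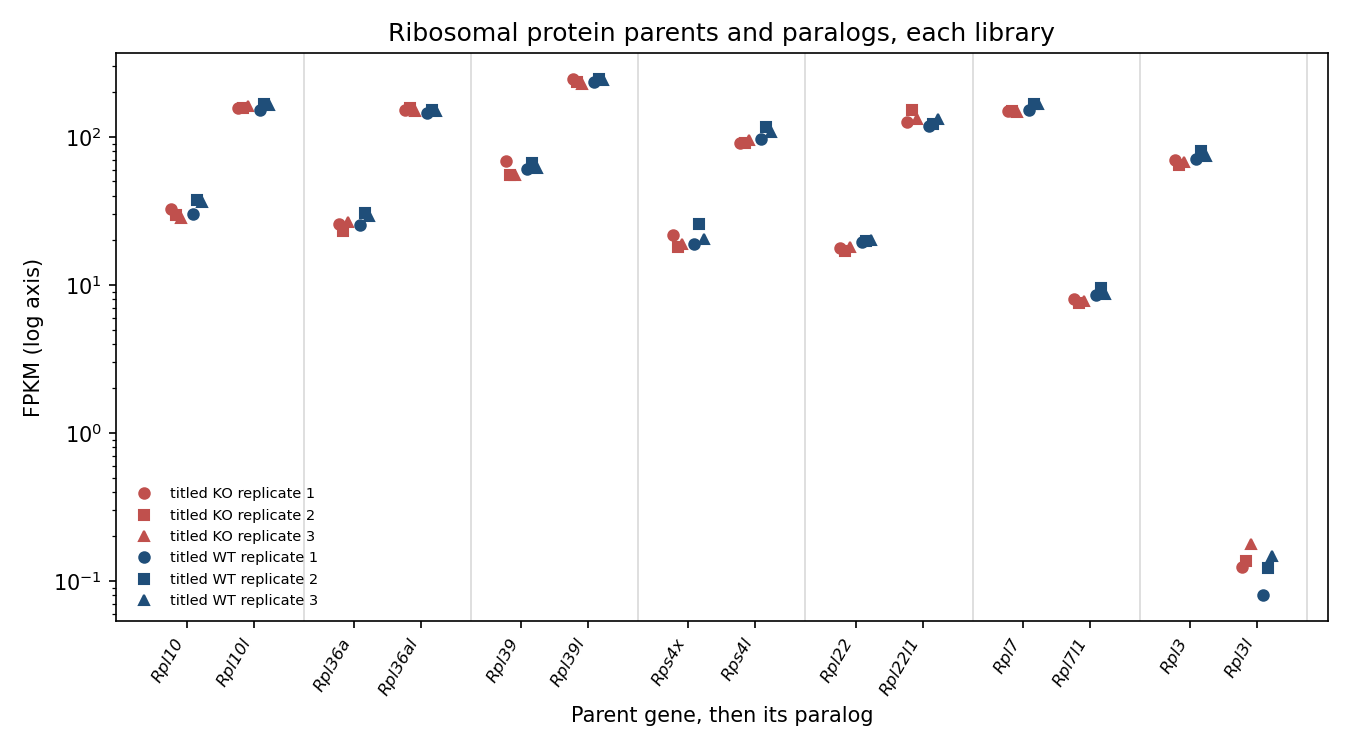
FPKM (log axis) of 7 parent genes and their paralogs in each of the 6 libraries; colours are the titled groups and symbols the replicate numbers. In the 4 X-linked pairs and in Rpl22 and Rpl22l1 the paralog is the higher gene in all libraries, while Rpl7l1 and Rpl3l lie far below their parents.

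Among the autosomal parents, Rpl22 was also lower than its paralog. Rpl22l1, which encodes a protein that can take the place of Rpl22 in the ribosome, was at 126, 151 and 132 FPKM in the titled KO libraries and 118, 123 and 131 FPKM in the titled WT libraries. Rpl22 was at 17.7, 17.1 and 18.0 FPKM against 19.4, 19.7 and 19.98 FPKM. Their ratio was 7.13, 8.86 and 7.32 in the titled KO libraries and 6.09, 6.24 and 6.56 in the titled WT libraries, so the groups did not overlap. With 1 FPKM added to both genes the difference was 0.29 on the log2 scale (0.19 without titled KO replicate 2), at the smallest p that 3 against 3 libraries allow (exact two-sided permutation test, p = 0.1, 0.35 after Benjamini-Hochberg adjustment over the 7 pairs). For Rpl3l and Rpl3 no difference is read, since Rpl3l was near the detection floor and its plain ratios overlapped between the groups. Rpl22l1 shares 56.5% of its windows with the pseudogene Gm15421, which was at 0.535 to 1.05 FPKM.

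For the X-linked pairs the ratios of the groups overlapped. On the log2 scale with 1 FPKM added, the differences in an exact permutation test were 0.15 for Rpl10l and Rpl10 (p = 0.2), 0.20 for Rpl36al and Rpl36a (p = 0.2), 0.04 for Rpl39l and Rpl39 (p = 0.6) and -0.06 for Rps4l and Rps4x (p = 0.6). Without titled KO replicate 3 the first of these was 0.0938, and without titled KO replicate 2 the second was 0.125. The last pair turned to 0.0242 without titled KO replicate 1, and the pair of Rpl39l and Rpl39 to -0.00557 without titled KO replicate 2. Adjusted values over the 7 pairs were between 0.35 and 0.6, and no p under 0.1 was possible.

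The remaining paralogs were of high and of low level. Rps27l, a paralog of Rps27 known as a target of p53, was at 101, 101 and 105 FPKM in the titled KO libraries and 105, 99.2 and 108 FPKM in the titled WT libraries. Rpl7l1, which encodes a ribosome assembly protein, was at 7.51 to 9.48 FPKM, at most 0.0572 of the level of Rpl7 in the same library. Rpl3l, the paralog of Rpl3 known from heart and skeletal muscle, was at 0.0802 to 0.179 FPKM, about 3.1 to 9.7 fragments per library. Rpl3l was thus close to the floor of 3 fragments in a tissue where Rpl3 was at 64.5 to 79.8 FPKM. The copies Rpl37rt, Rpl32l and Rps23rg1 were at 10.9 to 14.6, 0.0785 to 0.409 and 0.206 to 0.413 FPKM. GENCODE M21 classes Rpl37rt as a transcribed processed pseudogene and Rpl32l as a processed pseudogene, though both are counted among the paralogs here.

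Listed zeros concerned 4 core genes, and in each case a near copy held a high value. Rps27 was listed at 0 in all 6 libraries, while Rps27rt was at 924, 833 and 803 FPKM in the titled KO libraries and 806, 895 and 936 FPKM in the titled WT libraries. Its mean of 866 FPKM was the second among the members after Rpl41, though its range overlapped that of Rps29. Rpl34 was also listed at 0 throughout, with Rpl34-ps1 at 289, 291 and 294 FPKM against 328, 320 and 334 FPKM. Both encode core ribosomal proteins, and these zeros are reported as listed and not read as absence of the mRNA.

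Rpl26 and Rpl30 were at 0 in some libraries only. Rpl26 was above 0 only in titled WT replicate 1 (54.4 FPKM) and replicate 2 (49.97 FPKM), and was listed at 0 in the other 4 libraries. Gm15772 was at 516, 517 and 517 FPKM in the titled KO libraries and 418, 462 and 536 FPKM in the titled WT libraries, and was lowest in the 2 libraries in which Rpl26 was listed above 0. Rpl30 was at 47.5, 43.9 and 39.2 FPKM in the titled KO libraries and 43.0, 0 and 51.6 FPKM in the titled WT libraries. Gm12191 was highest, at 345 FPKM, in the library in which Rpl30 was listed at 0, and at 276 to 311 FPKM in the others.

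Each of these members was also summed with its copy. The copy held most of each sum, so the evenness of a sum cannot show how fragments were divided. The sum of Rpl26 and Gm15772 was 516, 517 and 517 FPKM in the titled KO libraries and 472, 512 and 536 FPKM in the titled WT libraries, and that of Rpl30 and Gm12191 was 324, 333 and 325 FPKM against 327, 345 and 363 FPKM. FPKM of transcripts of different length do not strictly add, so these sums are a description. How the deposited values divide fragments between a member and its copy was not tested, and for these 4 genes no mean, SD or fold change is given. Over all members, 14 had another symbol of the tables that shared at least 20% of their windows. That symbol was the higher one in all 6 libraries in 5 cases, the 4 genes with listed zeros and Rpl37rt, whose counterpart is Rpl37. High sharing alone did not go with a zero: Rps6 shares 84.6% of its windows with Rps6-ps4 and was at 87.7 to 96.6 FPKM.

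**Figure D3:**
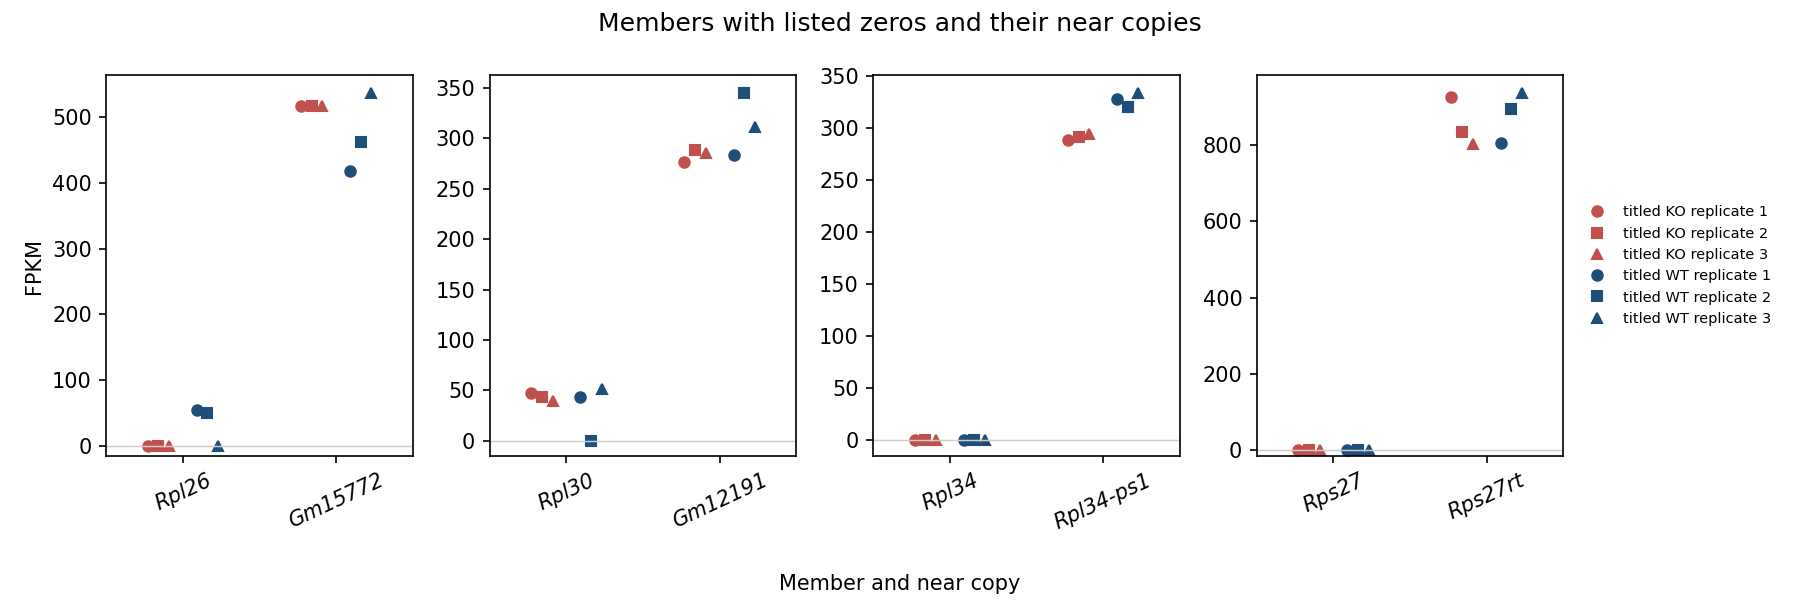
FPKM (linear axes, scaled separately) of the 4 members with listed zeros and of their nearest copies in each library. Rps27 and Rpl34 are at 0 in all 6 libraries, and Gm15772 is lowest, at 418 and 462 FPKM, where Rpl26 is above 0.

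Promoters were searched for short motifs, since the TOP letters above lie at the start of transcription. In windows from 250 bases before to 50 bases after the RefSeq start, CTTTCC occurred on either strand in 29 of 57 core genes found in the promoter table (50.9%), in 6 of 11 paralogs (54.5%) and in 29.3% of all 27025 genes. CCGGAAG, letters of the kind that ETS family factors and GABPA bind, occurred on either strand in 24 core genes (42.1%), 2 paralogs (18.2%) and 9.9% of all genes. Matches describe the letters of these windows only, and CTTTCC and CCGGAAG can overlap by their shared CC.

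Between the titled groups, no ribosomal protein gene passed the test. Of 90 members, 85 reached a mean of 1 FPKM in at least 1 group and were tested (limma on log2(FPKM + 1), Benjamini-Hochberg adjustment over 12952 symbols, threshold 0.05). Of these, 0 were called in the higher and 0 in the lower direction, where over all tested symbols 1.15% were called (0.788% higher and 0.363% lower). With unadjusted p-values under 0.05, 14 members were lower and 0 higher, against 8.89% lower and 5.38% higher of all tested symbols. The count of 14 moved with single libraries: leaving out 1 library gave 14 (titled KO replicate 1), 37 (titled WT replicate 1), 3 (titled WT replicate 2), 7 (titled WT replicate 3 or titled KO replicate 3) or 2 (titled KO replicate 2). These left-out counts are not split by direction, and the share over all tested symbols was not worked out for them. The lowest adjusted p of any member with no listed zero was 0.228. Below the filter were Rpl34 and Rps27, listed at 0, and the paralogs Rpl3l, Rpl32l and Rps23rg1.

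Most members were slightly lower in the libraries titled KO. Among the 83 tested members with no listed zero, 74 (89.2%) had a negative log2 fold change, against 65.7% of all tested symbols. Their median was -0.080, against -0.043 over all tested symbols. All 3 titled KO libraries lay below all 3 titled WT libraries in 16 of the 83 (19.3%), against 15.8% of all tested symbols, and above them in 0, against 5.92%. The share of separated members is near that background, and the median was -0.037 under median-of-ratios scaling, against -0.005 over all tested symbols. The titled KO mean lay between 85.7% and 109.9% of the titled WT mean in all 83.

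Intervals around the fold changes reflect the spread of these libraries only, which may be technical, and hold for the values as deposited. They do not bound a difference between animals. The 95% interval of the log2 fold change lay within -0.5 to 0.5 in 82 of the 83 members, with a median SE of 0.058. The exception was Rps27a, which encodes a ubiquitin fusion protein, with an interval from -0.545 to 0.333. It was at 129, 92.6 and 89.1 FPKM in the titled KO libraries and 131, 106 and 95.5 FPKM in the titled WT libraries, high in replicate 1 of both groups, and had the largest coefficient of variation of the members (17.3%, median 5.54%).

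**Figure D4:**
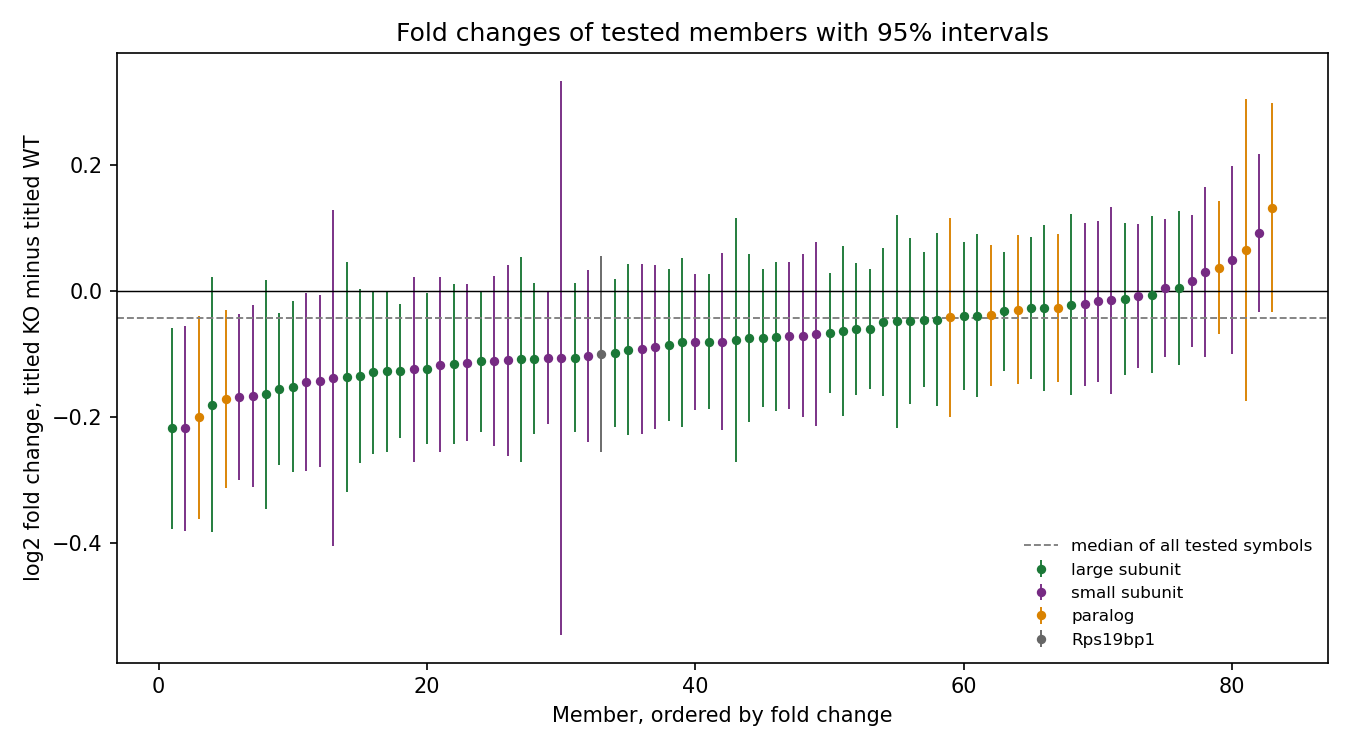
Log2 fold change, titled KO minus titled WT on the log2(FPKM + 1) scale, of the 83 tested members with no listed zero, ordered by size, with 95% intervals from the limma fit; colours give the subunit or class and the dashed line the median of all tested symbols (-0.043). The points run from -0.22 (Rplp2 and Rps3) to 0.13 (Rpl22l1), and 74 of the 83 lie below 0.

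In the large subunit nearly all members were on the negative side. Of its 43 members with no listed zero, 42 were negative, with a median of -0.078; the exception, Rpl31, was at 0.005 on the log2 scale (SE 0.05; adjusted p from limma 0.970), which turned to -0.00844 with equal library totals. Rplp2, a phosphoprotein of the acidic stalk, was at 228, 223 and 259 FPKM in the titled KO libraries and 255, 290 and 281 FPKM in the titled WT libraries. Its highest titled KO value lay above the lowest titled WT value, and the difference was -0.22 on the log2 scale (SE 0.07; adjusted p from limma 0.228). The other stalk genes differed less: Rplp0 had -0.06 and Rplp1 -0.03, the latter turning to 0.00282 and 0.0155 under upper-quartile and median-of-ratios scaling. Rpl22 was lower in every titled KO library, by -0.16 on the log2 scale (SE 0.05; adjusted p from limma 0.248). Rpl28 (-0.13, adjusted p = 0.277) and Rpl3 (-0.15, adjusted p = 0.303), which lines the peptidyl transferase centre, were also lower in every titled KO library in the same limma fit. None of them passed the threshold.

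Small-subunit genes had a median of -0.091, with 25 of 30 negative. Rps3, a protein at the mRNA entry site that also acts in DNA repair, was at 43.2, 38.0 and 42.9 FPKM in the titled KO libraries and 47.0, 52.4 and 45.5 FPKM in the titled WT libraries. The groups did not overlap, with a difference of -0.22 on the log2 scale (SE 0.07; adjusted p from limma 0.233). Rps14 (-0.17, adjusted p = 0.251) and Rps18 (-0.14, adjusted p = 0.327) overlapped between groups in the same limma fit. The 5 genes on the positive side were Rps20 (0.09), Rps29 (0.05), Rps24 (0.03), Rps12 (0.02) and Rps7 (0.004), none of which passed the threshold.

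Paralogs lay on both sides of 0. The 9 tested paralogs had a median of -0.030, with 6 negative. The 4 X-linked parents had a median of -0.151, all negative, and their 4 autosomal copies a median of -0.034; no test was made of this difference, and the pair ratios above did not separate the groups. Rps4l (-0.20, SE 0.07) and Rpl7l1 (-0.17, SE 0.06) were lower in every titled KO library, with limma adjusted p = 0.263 and 0.269. Rpl22l1 had the largest positive value of the 83 members with no listed zero, 0.13 (SE 0.07, limma adjusted p = 0.425), with overlap of the groups and 0.0549 without titled KO replicate 2. Rps19bp1 was at 9.96 to 10.2 FPKM against 9.87 to 11.5 FPKM (-0.10, adjusted p = 0.502).

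Summed over the subunits, the titled KO means were below the titled WT means, with overlap between single libraries. Large-subunit members summed to 9248 ± 116 FPKM in the titled KO libraries and 9747 ± 376 FPKM in the titled WT libraries (SD, n = 3), 94.9% of the titled WT mean. That sum includes Rpl26 and Rpl30 with their isolated zeros. Over the 43 large-subunit members with no listed zero it was 9204.4 ± 113.8 against 9680.5 ± 402.2 FPKM, or 95.1%. Small-subunit members summed to 6565 ± 155 against 6916 ± 363 FPKM, also 94.9%, and the paralogs to 1753 ± 64 against 1789 ± 98 FPKM, or 98.0%. Rps27rt alone made up 854 FPKM of the titled KO and 879 FPKM of the titled WT paralog mean. How its fragments divide with Rps27, listed at 0 and adding nothing to the small-subunit sum, was not tested. All members made up 4.50%, 4.19% and 4.31% of the FPKM of the titled KO libraries and 4.45%, 4.72% and 4.60% of the titled WT libraries. The sum in titled WT replicate 1, 17503 FPKM, lay within the titled KO range of 17310 to 17924 FPKM, while titled WT replicates 2 and 3 were at 18854 and 19031 FPKM.

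Members moved together from library to library. Titled WT replicate 1 was the lowest of its group in 77 of the 83 members. Titled WT replicates 2 and 3 were the highest of all 6 libraries in 41 and 34 members, and titled KO replicate 2 was the lowest in 36 and titled WT replicate 1 in 25. The median deviation of the members from their 6-library mean was -0.010, -0.063 and -0.039 (log2) in the titled KO libraries and -0.049, 0.086 and 0.075 in the titled WT libraries. Over all tested symbols the corresponding medians were -0.036, -0.028 and 0.004, and -0.021, 0.044 and 0.035. Hence 83 members do not amount to 83 separate observations of the group difference.

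**Figure D5:**
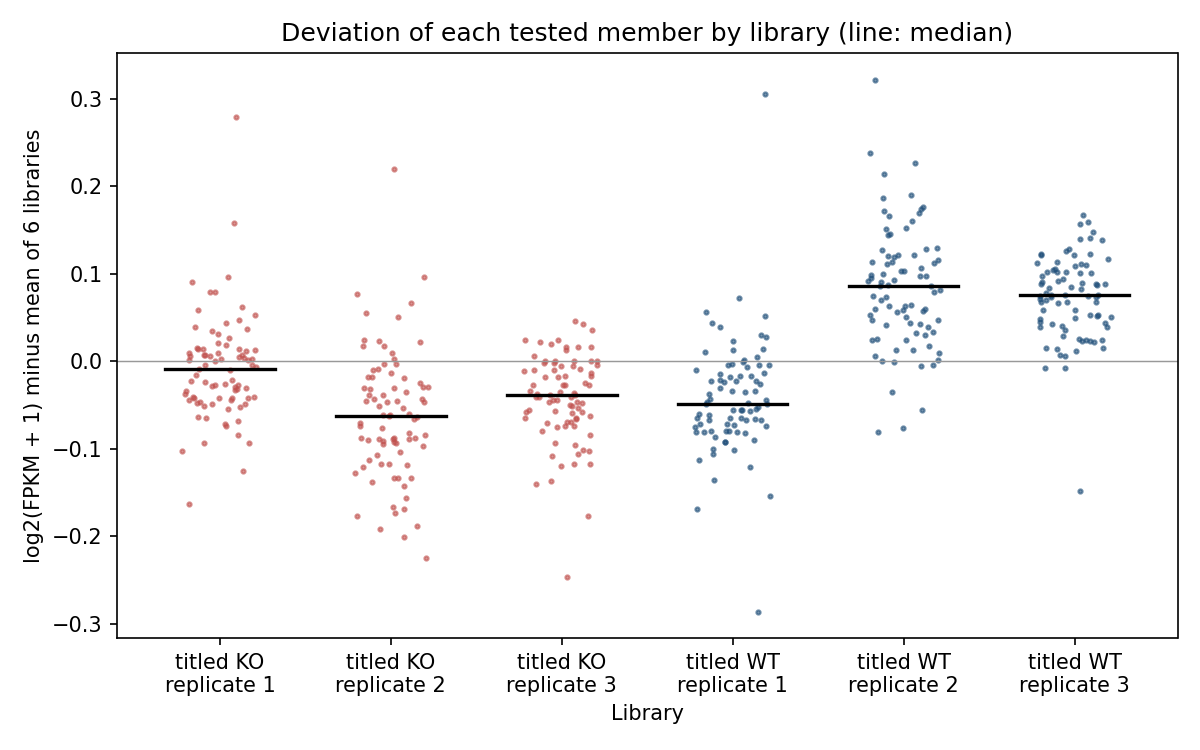
Deviation of log2(FPKM + 1) from the mean of the 6 libraries for each of the 83 tested members with no listed zero (points), by library, with the median as a black line. The medians of titled WT replicates 2 and 3 are 0.086 and 0.075, and that of titled WT replicate 1, -0.049, lies among those of the titled KO libraries.

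Genes that act with the ribosome were set beside the members (median -0.080) and all tested symbols (median -0.043). Of all tested symbols, 1.15% were called, and 15.8% had every titled KO library below every titled WT library. Of 6 partner proteins made as ubiquitin fusions or bound to the ribosome, 0 were called and the median was -0.030. Fau, which yields the small-subunit protein eS30, was at 388 to 423 FPKM against 418 to 437 FPKM, with overlap between the groups. Rack1, a scaffold on the small subunit, was at 63.2, 57.5 and 60.4 FPKM in the titled KO libraries and 65.8, 70.7 and 67.9 FPKM in the titled WT libraries (-0.17, limma adjusted p = 0.228), with no overlap. Among 19 tested genes of translation elongation and other TOP mRNAs 0 were called (median -0.071), among 12 of RNA polymerase I 0 (median -0.060), and among 77 mitochondrial ribosomal protein genes 0 (median -0.041).

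Of 33 tested ribosome assembly factors, 1 was called lower and 0 higher, against 0.363% and 0.788% of all tested symbols. The median of this list was -0.103. The called gene was Utp4, a protein of the small-subunit processome, at 14.2, 13.4 and 13.7 FPKM in the titled KO libraries and 17.7, 18.6 and 16.6 FPKM in the titled WT libraries. The log2 difference was -0.34 (SE 0.06; adjusted p from limma 0.039), and Utp4 was lower in 3 of 3 titled KO libraries. In 10 of 17 alternatives the call was lost, with adjusted p from 0.0264 to 0.159 over all 17.

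Markers of testis cell types were set beside these values. Spermatogonial markers (7 genes) summed to 38.1 to 43.3 FPKM in the titled KO libraries and 44.9 to 52.7 FPKM in the titled WT libraries. The median change of 6 tested genes was -0.146 on the log2 scale, and 4 of the 6 were negative. Elongating spermatid markers (7 genes), at 32290 to 34340 against 27110 to 30970 FPKM, were also apart, with a median of 0.126 and 1 of the 7 negative. Such sums weigh the highest genes of a list most. Sums of the Leydig cell markers, at 1483 to 1727 against 1658 to 1725 FPKM, overlapped, with a median of -0.172 and all 7 genes negative. Also overlapping were those of the spermatocyte, round spermatid, Sertoli, peritubular, macrophage, blood and endothelial lists, whose medians were -0.039, 0.073, -0.072, -0.128, -0.086, -0.176 and -0.221. No gene of these 10 lists passed the threshold, and Hbb-bs was listed at 0 in all libraries. The defining germ cell markers of testis were present, and the part of cell composition in the ribosomal protein values was not tested.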

How the data were processed

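Total RNA was extracted with Trizol and made into directional NEBNext Ultra II libraries, per the labels' protocols. HISAT2 and the build mm10 are named, with no version, in the submitters' processing notes. How values were quantified, with which annotation and strand setting, was not given in the sources used here. The authors deposited 1 table of symbols and values per library, taken as FPKM from the values: they are not whole, their totals differ, and multiplied by transcript length the low values lie at whole steps (79 to 95 genes per library at 1 step and 9 to 18 at 1.5 steps, within 0.02 on the log10 scale, among 4774 genes with 1 transcript). Floors from these steps cover counting error only. Rows were summed per symbol (333 symbols on several rows, 0 of them members). A zero beside 1 FPKM or more in another library was treated as listed, with no mean.

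The test was limma (version 3.58.1, in R 4.3.3) with an intensity trend and robust moderation, on log2(FPKM + 1), a scale that understates changes of low genes; it was tested on simulated data. Symbols whose group mean reached 1 FPKM in a group or more entered the fit. Since no label ties libraries to separate animals, a p-value here reflects the spread of these libraries only, which may be technical. Ratios were tested with exact two-sided permutation tests on log2 of (paralog + 1)/(parent + 1). Near copies were found by 50-base windows of 1 chosen GENCODE M21 transcript per gene (GRCm38, the assembly of mm10) against all GENCODE transcripts, and identity by global alignment with Biopython 1.88; 89 members had a model. Figures were drawn with matplotlib 3.10.9.

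The members and lists were chosen with earlier results of these data known, and 3 paralogs (Rpl32l, Rpl37rt and Rps23rg1) were classed after the files were seen. Named were all paralogs and their parents, X-linked members, stalk genes, members with listed zeros, the highest and lowest of each subunit, up to 5 with the smallest p in each direction, and called companion genes; Rps7, Rps27a and the copies in other symbols were named after their values were seen. Results of 3 genes that the rule or the near-copy search would name are not reported here. Alternatives were other pseudocounts, filters and scalings, no robust estimation, a replicate block, zeros as missing values, single-row symbols, each library left out and, chosen after seeing the data, core genes with under 50% of windows shared.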

Additional observations from a re-analysis of the deposited data

How the results depend on the processing

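The counts of members called higher (0) and lower (0) and the negative sign of the median held under all alternatives run, except that 1 member was called lower without titled WT replicate 3. That member was Rpl26 (limma adjusted p = 6.78e-12), which is listed at 0 in all titled KO libraries and in the library left out. Leaving out each library in turn gave 0 to 1 members called lower, a median of -0.113 to -0.0602, and KO to WT ratios of the summed FPKM of 0.928 to 0.962 for the large and 0.921 to 0.964 for the small subunit. Within-group deviations of same-numbered libraries correlated at 0.065, -0.129 and 0.061 over all tested symbols. For differently numbered libraries the correlations ran from -0.249 to 0.197. These values show no general pairing by replicate number, and a pairing limited to some genes was not tested. With the replicate block 0 members were called, 4 passed an unadjusted p under 0.05 in place of 14, and the median stayed at -0.080. The number at an unadjusted p under 0.05, not split by direction, was 24 with equal library totals, 8 with upper-quartile and 7 with median-of-ratios scaling. Shares over all tested symbols were not worked out for the replicate block or these scalings, so the counts have no background beside them. Member medians under these scalings were -0.0937, -0.0498 and -0.0372, against -0.0539, -0.0164 and -0.00548 over all tested symbols.

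Signs turned for named genes with values near 0. With upper-quartile scaling Rpl10l was at 0.000736, Rplp1 at 0.00282, Rps15a at 0.0122 and Rps27l at 0.00336. With median-of-ratios scaling Rpl10l was at 0.0134, Rpl39l at 0.00438, Rpl41 at 0.0107, Rplp1 at 0.0155, Rps15a at 0.0242, Rps27l at 0.0159 and Rps27rt at 0.00117. Rpl31 was at -0.00844 with equal library totals. With each library left out in turn, the ranges were -0.0334 to 0.0271 for Rpl31, -0.0625 to 0.13 for Rpl37rt, -0.0567 to 0.0112 for Rplp1, -0.00422 to 0.0253 for Rps12, -0.0366 to 0.0135 for Rps15a, -0.0091 to 0.0785 for Rps24, -0.0619 to 0.000921 for Rps27l, -0.103 to 0.00422 for Rps27rt and -0.0236 to 0.111 for Rps29. The difference in log2 ratio ranged from -0.00557 to 0.105 for Rpl39l and Rpl39 and from -0.12 to 0.0242 for Rps4l and Rps4x. Why these values turned was not tested.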

Other observations

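Pseudogene rows of ribosomal protein genes, which the member rule leaves out, numbered 9 in the tables, and 7 of them were tested. Of these 0 were called higher and 1 lower, against 0.788% and 0.363% of all tested symbols, with a median log2 fold change of -0.129. The called row was Rplp2-ps1, at 14.8, 14.1 and 15.5 FPKM in the titled KO libraries and 20.2, 21.6 and 19.9 FPKM in the titled WT libraries, lower in 3 of 3 libraries with no overlap. The log2 difference was -0.45 (SE 0.06; adjusted p from limma 0.00850), and the row was called in 16 of 17 alternatives, with values from -0.483 to -0.41; under the replicate block the adjusted p was 0.077. The row was chosen after its values were seen. Its parent by name, Rplp2, at -0.22, did not pass the threshold. GENCODE M21 has no model named Rplp2-ps1, so the sequence that it shares with Rplp2 was not examined.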
